A study of Homo sapiens with 10 samples.

Results

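The levels of 10 keratin genes (KRT5, KRT6A, KRT7, KRT8, KRT16, KRT17, KRT18, KRT19, KRT80 and KRT81) were followed across 10 RNA sequencing libraries of A549 cells. They are 10 of the 33551 rows of the deposited count table and 10 of its 55 keratin rows, and all 10 passed the filter on low counts. They were chosen by name to set keratins of simple epithelium beside keratins of basal or wounded epithelium, with results of these data already known. Among those results were the higher KRT16 in the L101P line and the higher KRT6A in the E690K line. Differences of the 10 genes between lines are therefore a description: no p-value is given for them, and the number past the threshold used for all genes is no test of them.

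Keratins are the intermediate filament proteins of epithelial cells, and a filament is built from pairs of a type I and a type II keratin. In simple epithelium, such as the lining of the alveolus, the pair is KRT8 (type II) with KRT18 (type I), joined by KRT7 (type II) and KRT19 (type I). Basal cells of stratified epithelium use KRT5 (type II), while KRT6A (type II), KRT16 and KRT17 (type I) are known for their induction in wounded or hyperproliferative epithelium. KRT80 is a type II keratin of epithelial cells found near desmosomes, and KRT81 is a type II keratin of the hair shaft, so the name simple or stratified does not cover it.

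A549 is an established human lung adenocarcinoma line. The labels give 5 lines: wild type (WT), an ABCA3 knockout (KO), and lines with the ABCA3 variants L101P, E292V or E690K, where ABCA3 is a lipid transporter of the surfactant-storing lamellar bodies. Each line was sequenced untreated and after overnight exposure, at a multiplicity of infection of 20, to the lentiviral vector VSVG LV-ABCA3:GFP, which carries ABCA3 joined to GFP. There was 1 library for each line and state, so 2 libraries for each line and 5 for each state. Nothing in the sources used here says how the edited lines were made, whether each is a clone, or whether the libraries came from separate cultures.

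Library totals ran from 59430095 to 96811421 counts, and both ends were L101P libraries, the untreated and the transduced one. ABCA3, the edited gene, stood at 355.8 and 602 CPM (read counts scaled to the library total, with TMM factors) in untreated and transduced WT. In the same order it stood at 1151 and 922 CPM in L101P, 965 and 1021 in E292V, and 900 and 994 in E690K. Transduced L101P was thus below untreated L101P. ABCA3 stood at 600 CPM in the untreated and 26.0 CPM in the transduced library labelled KO, and the EGFP row at 37.9 and 0.050 CPM. Both rows of the KO pair went against its labels. In the other 4 lines EGFP was higher after transduction, but untreated WT, at 69.7 CPM, stood above 4 of the 5 transduced libraries. Every statement below on the KO line or on the vector refers to libraries as labelled.

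Epithelial identity was checked on markers. Of 5 epithelial markers, the adhesion proteins EPCAM (7.62 to 22.5 CPM) and CDH1 (21.8 to 35.4 CPM) were present in the 10 libraries, while CDH3 (0.0745 to 0.749 CPM), ESRP1 (0.134 to 1.11 CPM) and ESRP2 (0 to 0.229 CPM) were low. All 6 mesenchymal markers averaged above 1 CPM, among them VIM (362 to 614.5 CPM) and FN1 (58.9 to 175 CPM). Of 7 alveolar type 2 markers, SFTPC had 0 to 26 counts in a library, NKX2-1 0 to 16, SFTPB 0 to 12, SFTPA1 0 to 11 and SFTPA2 0 to 10. LAMP3 had 18 to 54, and ABCA3, the edited gene that the vector also carries, stood at 26.0 to 1151 CPM. Of 5 alveolar type 1 markers, CAV1 (287 to 635.5 CPM) and AGER (1.59 to 2.92 CPM) averaged above 1 CPM. The others, PDPN, HOPX and AQP5, had at most 10 counts. The leukocyte marker PTPRC had 0 to 10 counts. Of 6 markers of basal airway or squamous epithelium, TP63 (2.07 to 12.5 CPM) and KRT15 (5.67 to 28.8 CPM) averaged above 1 CPM. KRT14 had 0 to 36 counts, DSG3 0 to 6, KRT5 0 to 38 and NGFR 24 to 66. The labels call the cells alveolar basal epithelial cells. SFTPC, SFTPB, SFTPA1, SFTPA2 and NKX2-1 of the type 2 markers, and KRT5, KRT14 and DSG3 of the basal markers, were thus at or near 0. ABCA3 of the type 2 markers, and TP63 and KRT15 of the basal markers, were not, while LAMP3 and NGFR were low. In bulk RNA, fewer cells of a type and less RNA per cell cannot be told apart.

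Several of these genes share sequence with close relatives, and how reads that fit more than 1 gene were counted is not given in the sources used here. Of the 50-base windows in the transcripts of KRT81, 43.7% also occur in another gene, mostly its hair keratin neighbour KRT86 (37.6%). For KRT6A the share was 39.1%, with KRT6C (35.2%) and KRT6B (28.5%). For KRT18 it was 35.9%, spread over 43 keratin pseudogenes and a stretch shared with the adjoining KRT8 (16.2%). The share was 19.9% for KRT16, 16.2% for KRT8, 12.2% for KRT17, 10.7% for KRT7, 3.24% for KRT5, 1.64% for KRT19 and 0.41% for KRT80. The 3 pairs below show the problem at the end of each pair's longest identical coding stretch, in the GRCh38 reference with GENCODE 29 transcripts. Capitals mark the bases that differ, the sequences are coding strand from 5′ to 3′, and those of KRT81 and KRT86 are spliced across an intron.
KRT81 (coding bases 576 to 695, chr12:52288401-52290080, minus strand): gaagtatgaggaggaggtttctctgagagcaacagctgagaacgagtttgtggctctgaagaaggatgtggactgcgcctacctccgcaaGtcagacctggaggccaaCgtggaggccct
KRT86 (coding bases 576 to 695, chr12:52303306-52304987, plus strand): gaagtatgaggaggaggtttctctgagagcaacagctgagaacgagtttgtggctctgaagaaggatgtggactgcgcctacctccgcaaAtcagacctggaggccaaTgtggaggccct
KRT6A (coding bases 366 to 485, chr12:52492704-52492823, minus strand): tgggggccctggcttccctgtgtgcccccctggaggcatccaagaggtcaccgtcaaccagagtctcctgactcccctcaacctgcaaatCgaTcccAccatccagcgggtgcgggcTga
KRT6C (coding bases 366 to 485, chr12:52473253-52473372, minus strand): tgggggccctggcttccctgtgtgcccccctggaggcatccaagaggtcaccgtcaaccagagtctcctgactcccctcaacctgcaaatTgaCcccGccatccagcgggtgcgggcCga
KRT16 (coding bases 384 to 503, chr17:41612186-41612305, minus strand): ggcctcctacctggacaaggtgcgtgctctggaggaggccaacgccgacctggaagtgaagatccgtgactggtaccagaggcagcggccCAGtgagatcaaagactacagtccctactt
KRT14 (coding bases 378 to 497, chr17:41586338-41586457, minus strand): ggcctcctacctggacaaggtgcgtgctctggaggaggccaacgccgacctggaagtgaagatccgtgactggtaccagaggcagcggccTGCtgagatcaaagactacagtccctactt

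The longest identical coding stretch was 605 bases between KRT81 and KRT86 (94.2% identity over the aligned coding bases), 349 bases between KRT6A and KRT6C (97.9%) and 158 bases between KRT16 and KRT14 (88.7%). The relatives differed widely in what was counted for them. KRT6B had 0 to 8 counts in a library, KRT6C 0 to 11 and KRT14 0 to 36, whereas KRT86 had 5624 to 10940. KRT6A, with 13 to 506 counts, and KRT16, with 26 to 1591, were above the relative shown with them in every library.

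The 6 type II genes lie in the keratin cluster on chromosome 12, in the order KRT80 (52168996 to 52192000), KRT7 (52232520 to 52252186), KRT81 (52285913 to 52291534), KRT6A (52487174 to 52493257), KRT5 (52514575 to 52520687) and KRT8 (52897187 to 52949954). KRT18 (52948871 to 52952901) is the type I gene that adjoins KRT8 there, on the opposite strand, and the annotated exons of the pair share 525 bases. The other type I genes lie on chromosome 17: KRT19 (41523617 to 41528308), KRT16 (41609778 to 41615899) and KRT17 (41619441 to 41624842). KRT7 shares 282 exon bases with its antisense gene KRT7-AS (1386 to 2699 counts), and KRT81 lies wholly inside the span of KRT86 without sharing exon bases. Strand use in counting is not given in the sources used here, so reads in the shared bases of opposite strands cannot be told apart.

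The simple keratins and the hair keratin KRT81 made up nearly all keratin counts of these cells. KRT81, KRT8, KRT7 and KRT18 together held 94.0% to 96.2% of keratin counts, and keratins held 1.21% (transduced E292V) to 2.10% (transduced L101P) of all counts. Median levels over the 10 libraries were 5550 TPM (CPM divided by the length of each gene's principal transcript and rescaled to a common total) for KRT81, 5324 for KRT8, 3554 for KRT7 and 3083 for KRT18. They were followed by KRT19 (331 TPM), KRT80 (212 TPM), KRT16 (5.82 TPM), KRT17 (3.20 TPM), KRT6A (1.03 TPM) and KRT5 (0.117 TPM). The ranges over libraries of neighbours in this order overlapped except between KRT18 and KRT19, and between KRT80 and KRT16, with 4 other keratins between the last pair. KRT81 was above KRT8 in 8 of the 10 libraries. With the length of all annotated exons in place of the principal transcript, an alternative chosen after seeing the data, KRT81 was above KRT8 in 10 libraries, and KRT8 above KRT7 in 5 in place of 10. Type II keratins exceeded type I keratins in summed TPM by 3.49 (transduced L101P) to 4.75 times (transduced E292V).

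**Figure D1:**
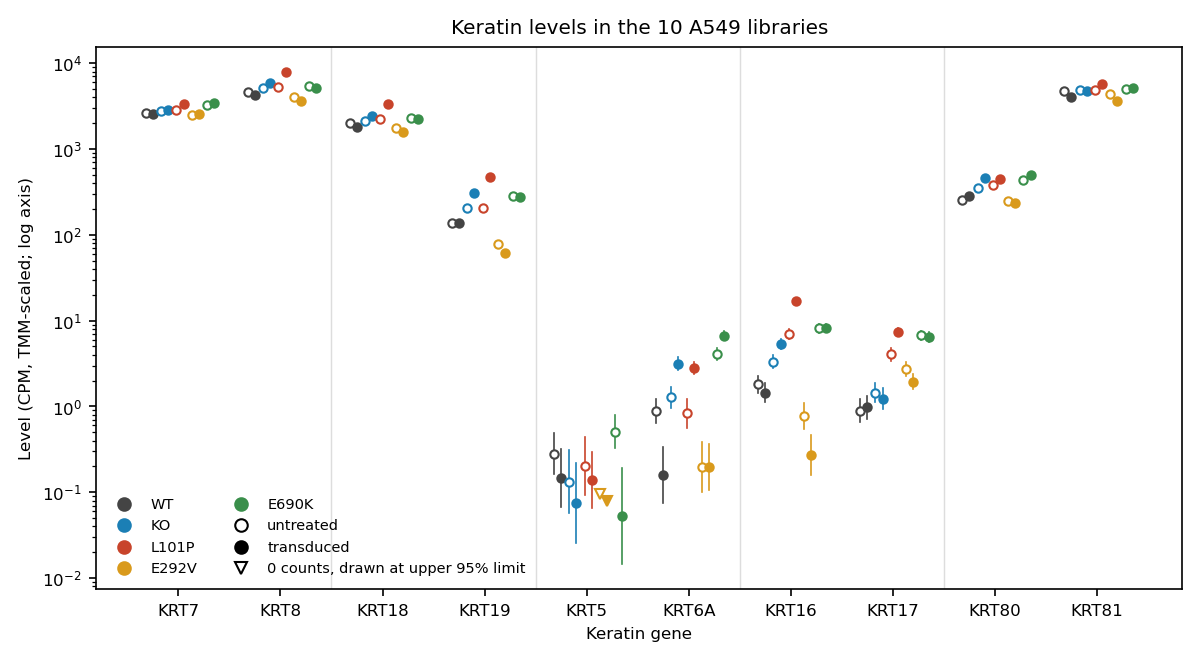
Level of each keratin (TMM-scaled CPM, log axis) in the 10 libraries, with lines by colour, untreated libraries as open and transduced libraries as filled points, 95% Wilson intervals of counting as bars, and triangles for 0 counts at the upper limit. KRT7, KRT8, KRT18 and KRT81 sit between 1587 and 7945 CPM, and KRT5, KRT6A, KRT16 and KRT17 reach at most 16.9 CPM.

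Of the simple type II keratins, KRT8 varied more than KRT7. KRT8 stood, untreated and then transduced, at 4634 and 4283 CPM in WT, 5088 and 5896 in KO, 5229 and 7945 in L101P, 3989 and 3673 in E292V, and 5374 and 5195 in E690K. Transduced L101P was the highest library and the E292V pair the lowest. KRT7 stood at 2612 and 2585 CPM in WT, 2791 and 2865 in KO, 2859 and 3387 in L101P, 2473 and 2567 in E292V, and 3291 and 3420 in E690K. Its highest library was 1.38 times its lowest, against 2.16 times for KRT8, and the E690K pair together with transduced L101P stood above the rest.

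KRT18, the type I partner of KRT8, stood at 2026 and 1808 CPM in WT, 2126 and 2411 in KO, 2234 and 3333 in L101P, 1760 and 1587 in E292V, and 2286 and 2249 in E690K. Transduced L101P was again the highest and the E292V pair the lowest. KRT19, a type I keratin that lacks the usual tail domain, stood at 136.6 and 138.1 CPM in WT, 206.6 and 304.5 in KO, 202.9 and 472.9 in L101P, 78.6 and 61.6 in E292V, and 281 and 279 in E690K. Both E292V libraries were below both WT libraries, and both libraries of each other line were above them. Its highest library was 7.68 times its lowest, the widest range among the 6 keratins above 10 CPM.

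The basal keratin KRT5 was barely detected. It had 24 and 12 counts in WT, 10 and 6 in KO, 12 and 13 in L101P, 0 and 0 in E292V, and 38 and 4 in E690K. The highest level, 0.508 CPM in untreated E690K, had a 95% Wilson interval of 0.325 to 0.794 CPM, which overlapped that of untreated WT (0.162 to 0.494 CPM). The 0 counts of E292V allow levels of up to 0.0948 and 0.0800 CPM, a limit below the interval of untreated WT and inside that of transduced WT (0.0668 to 0.318 CPM). All intervals cover counting error only, and they were computed on read pairs, since even values prevailed among low counts.

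KRT6A, the type II keratin of wounded epithelium, stood at 0.883 and 0.158 CPM in WT, 1.28 and 3.155 in KO, 0.838 and 2.80 in L101P, 0.197 and 0.198 in E292V, and 4.04 and 6.65 in E690K. The E690K pair was above the other 8 libraries, and the lowest 3 were the E292V pair and transduced WT. The last of these rested on 13 counts, with an interval of 0.0745 to 0.334 CPM, against 75 counts in untreated WT.

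KRT16, a type I partner of KRT6 keratins, stood at 1.81 and 1.445 CPM in WT, 3.33 and 5.34 in KO, 7.07 and 16.9 in L101P, 0.765 and 0.271 in E292V, and 8.13 and 8.175 in E690K. No library of E292V reached those of WT, and KO, L101P and E690K lay above WT without overlap. KRT17, induced in injured skin and also found in basal cells, stood at 0.894 and 0.983 CPM in WT, 1.45 and 1.23 in KO, 4.07 and 7.35 in L101P, 2.71 and 1.94 in E292V, and 6.715 and 6.47 in E690K. KRT17 thus differed from KRT16 in that E292V stood above WT and above KO.

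KRT80 stood at 254 and 286 CPM in WT, 351 and 454 in KO, 378 and 449 in L101P, 250 and 237 in E292V, and 435.5 and 502 in E690K. Both libraries of KO, L101P and E690K were above both WT libraries, and the E292V pair was below them. KRT81 stood at 4720 and 4005 CPM in WT, 4914 and 4799 in KO, 4879 and 5752 in L101P, 4423 and 3621 in E292V, and 5056 and 5088 in E690K. WT and E292V overlapped for KRT81, and the other 3 lines lay above both.

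The ratios of keratins within a library showed which of them kept step. The count ratio of KRT8 to KRT18 stayed between 2.27 and 2.45, so that the highest was 1.08 times the lowest. These genes share 525 exon bases, which touches the ratio, and its part was not tested. The ratio of KRT81 to its near-identical neighbour KRT86 stayed between 47.4 and 53.1 (1.12 times), where shared sequence likewise applies. By contrast KRT7 to KRT19 ran from 7.16 in transduced L101P to 41.7 in transduced E292V, and KRT19 to KRT18 from 0.0388 to 0.142. The ratio of KRT16 to KRT17 ran from 0.140 in transduced E292V to 4.34 in transduced KO, and was below 1 in the E292V pair only. KRT6A to KRT16 ran from 0.109 in transduced WT to 0.814 in transduced E690K. Across the 10 libraries, which come in pairs from 5 lines, the Pearson r of log2 CPM was 0.996 between KRT8 and KRT18, 0.969 between KRT16 and KRT19, and 0.588 between KRT16 and KRT17.

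**Figure D2:**
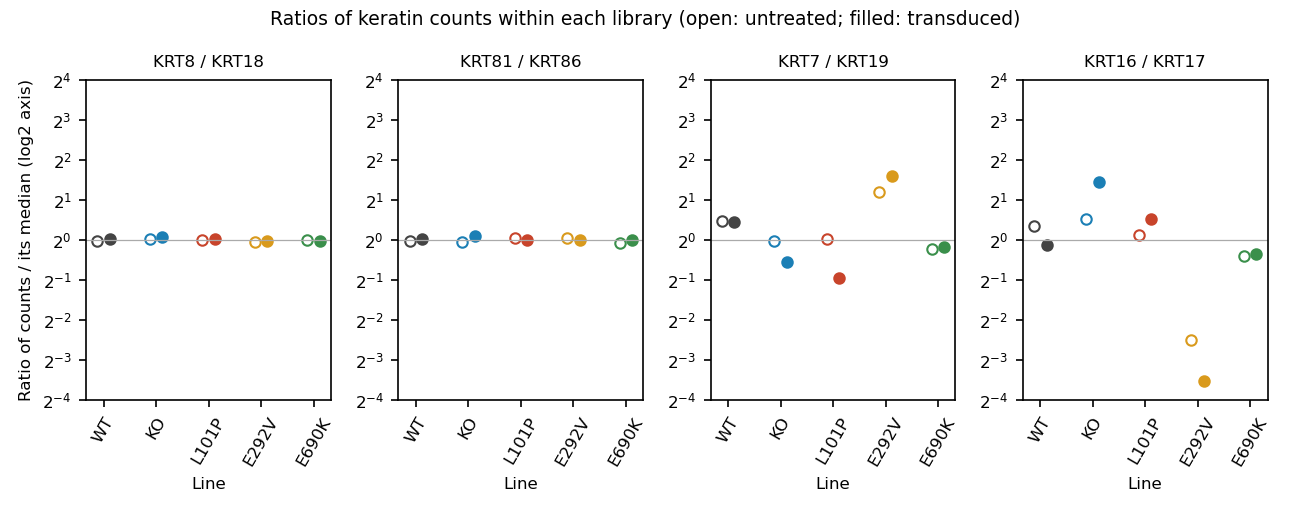
Count ratio of 4 keratin pairs in each library, divided by the median ratio over the 10 libraries (log2 axis), for untreated (open) and transduced (filled) libraries of each line. KRT8 to KRT18 and KRT81 to KRT86 sit on the line of no change, whereas KRT7 to KRT19 is highest in E292V (31.5 and 41.7) and KRT16 to KRT17 lowest there (0.282 and 0.140).

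The comparison of each edited line with WT asks how a genotype of ABCA3 goes with the keratin program of the cells. The 4 comparisons share the WT libraries, and each line is represented by a single line, so that a call describes these lines. The values are log2 differences, line minus WT, from an edgeR quasi-likelihood fit of line and vector state over all 17978 genes tested. In L101P the differences were 2.84 (SE 0.42) for KRT16, 2.60 (SE 0.30) for KRT17, 1.24 (SE 0.26) for KRT19, 0.61 (SE 0.09) for KRT80 and 0.55 (SE 0.14) for KRT8. These 5 were past the threshold used for all genes, an adjusted p under 0.05, which 2.33% of all genes tested passed as higher and 1.61% as lower. In E690K they were 3.19 (SE 0.68) for KRT6A, 2.81 (SE 0.30) for KRT17, 2.31 (SE 0.41) for KRT16, 1.03 (SE 0.26) for KRT19, 0.79 (SE 0.095) for KRT80 and 0.37 (SE 0.075) for KRT7. These 6 were past the threshold, which 3.05% of all genes passed as higher and 2.33% as lower. Because the genes were chosen with line differences known, nothing is read from such counts here or below.

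In KO the differences were 1.88 (SE 0.675) for KRT6A, 1.38 (SE 0.41) for KRT16, 0.87 (SE 0.26) for KRT19 and 0.57 (SE 0.09) for KRT80. KRT80 was the 1 keratin of the 10 past the threshold, which 0.807% of all genes passed as higher and 0.99% as lower. In E292V the differences were 1.31 (SE 0.30) for KRT17, -0.95 (SE 0.26) for KRT19, -1.535 (SE 0.77) for KRT6A and -1.67 (SE 0.47) for KRT16. KRT5 had 0 counts in both E292V libraries, so its fitted value is not given. In E292V 0 of the 10 were past the threshold by edgeR, which 0.295% of all genes passed as higher and 0.756% as lower. The DESeq2 Wald test called 1 of the 10 there (KRT17) and 432 of all 17978 genes, 122 higher and 310 lower. The median difference of the 10 was 0.58 in both L101P and E690K, 0.405 in KO and -0.21 in E292V, beside medians over all genes of -0.014, -0.017, -0.012 and -0.001.

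The number past the threshold turned on which pairs were in the fit. Without the L101P pair it was 5 in KO (KRT80, KRT16, KRT19, KRT6A and KRT8) in place of 1, and 3 in E292V in place of 0, with KRT17 higher and KRT16 and KRT19 lower. Without the E292V pair it was 2 in KO, and without the E690K pair 3 in L101P in place of 5. With the labels of the KO pair exchanged it was 0 in KO and 3 in L101P. Without the filter on low counts it was 4 in E292V, where KRT5, KRT16 and KRT19 were lower and KRT17 higher.

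The 2 pairs of libraries behind each difference were not always alike. KRT16 in L101P was 1.964 above WT on the log2 scale when untreated libraries were set side by side and 3.55 when transduced ones were, and in E690K 2.17 and 2.50. KRT17 was 2.19 and 2.90 in L101P and 2.91 and 2.72 in E690K. KRT19 was 0.57 and 1.78 in L101P, 1.04 and 1.01 in E690K, and -0.80 and -1.17 in E292V. KRT6A differed most between pairs, at 0.54 and 4.32 in KO, -0.08 and 4.15 in L101P, and 2.19 and 5.40 in E690K. These 3 large values in transduced pairs share the transduced WT library with its 13 counts of KRT6A.

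**Figure D3:**
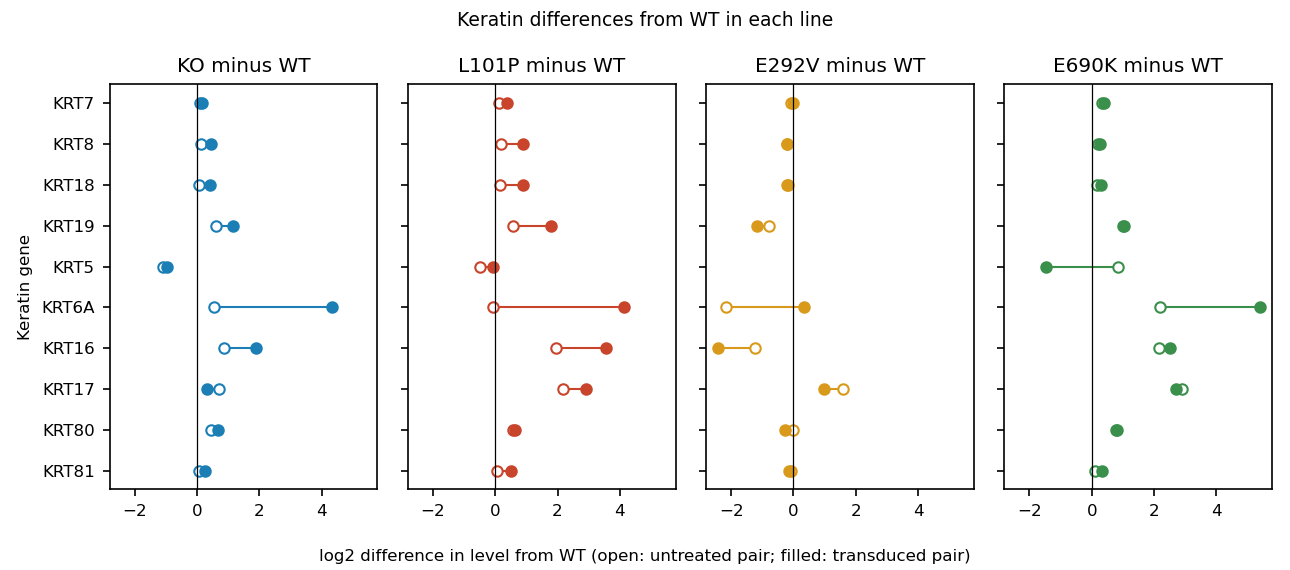
log2 difference in level from WT for each keratin in KO, L101P, E292V and E690K, with untreated libraries compared as open points and transduced ones as filled points. KRT16 and KRT17 lie right of 0 in both pairs of L101P and E690K, KRT16 lies left and KRT17 right of 0 in E292V, and KRT5 of E292V is not drawn because its counts were 0.

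Among the other keratins, 6 rows averaged at least 1 CPM. KRT86 and KRT83 (hair keratins), KRT85 (hair), KRT10 (suprabasal epidermis), KRT4 (mucosal stratified epithelium) and KRT15 (basal cells) had median levels of 96.4, 13.5, 3.30, 74.0, 12.6 and 5.18 TPM. Of these only KRT15 was called, that is, past the edgeR threshold, higher in L101P (1.18, SE 0.27) and in E690K (1.27, SE 0.27). KRT4 was the other way round in E690K (-1.24, SE 0.39) without being called.

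The vector comparison asks what transduction did to the keratins, and it was not used in choosing them. The 5 lines served as its replicates, each with an untreated and a transduced library. None of the 10 keratins was called, in a comparison in which edgeR called 0.0% of genes (0 of 17978, with 1236 at an unadjusted p under 0.05, and 113 called by the DESeq2 Wald test, which called 0 of the 10). The untreated and transduced libraries overlapped for each keratin. KRT80 had the smallest p of the 10, with a log2 change of 0.18 (SE 0.06), higher in 4 of 5 lines and lower in E292V, at an unadjusted edgeR p of 0.00908 and an adjusted p of 0.487. For KRT19 the log2 change was 0.29 (SE 0.16), higher in 3 of 5 lines, with an edgeR adjusted p of 0.818. KRT5, with at most 38 counts, was lower in the 4 lines with counts (-1.31, SE 0.79), at an unadjusted edgeR p of 0.124. The other 7 had values from -0.06 (KRT81, SE 0.07) to 0.51 (KRT6A, SE 0.435), with edgeR adjusted p of 0.839 to 0.987. The median over the 10 was 0.095, beside 0.001 over all genes.

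Behind these means the lines differed in direction. In L101P the log2 change, transduced minus untreated, was 1.74 for KRT6A, 1.26 for KRT16, 1.22 for KRT19, 0.85 for KRT17, 0.60 for KRT8, 0.58 for KRT18, 0.25 for KRT80 and 0.24 for both KRT7 and KRT81. All but KRT5 were higher in transduced L101P. In E292V it was -1.50 for KRT16, -0.49 for KRT17 and -0.35 for KRT19. In WT it was -2.48 for KRT6A and -0.33 for KRT16, and in KO 1.30 for KRT6A, 0.68 for KRT16 and 0.56 for KRT19. In E690K it was 0.72 for KRT6A and -0.05 to 0.20 for the other keratins except KRT5. A line gives 1 library for each state, so these differences within a line have no replicate check and no test.

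Changes past 1.5-fold within a line were counted over 9 keratins and 12962 genes, those averaging 1 CPM or more. In L101P 5 keratins were higher (KRT6A, KRT16, KRT17, KRT19 and KRT8) and 0 lower, where 4.75% of genes were higher and 3.56% lower. In KO 2 were higher (KRT6A and KRT16), where 1.59% of genes were higher and 2.0% lower. In E690K 1 was higher (KRT6A), where 1.4% of genes were higher and 1.48% lower. In WT 1 was lower (KRT6A), where 1.44% of genes were lower and 2.41% higher, and in E292V 1 was lower (KRT16), where 2.47% of genes were lower and 2.99% higher. The L101P pair held the shallowest and the deepest library. Marker levels moved in the same pair. The summed level of 6 basal markers was 17.7 CPM untreated and 41.9 CPM transduced. Most of it was KRT15, itself a keratin, at 11.6 and 28.8 CPM, and TP63, at 4.89 and 12.5 CPM. KRT5, also in the sum, was lower, at 0.201 and 0.138 CPM, and NGFR, KRT14 and DSG3 stayed below 1 CPM. The summed level of 5 goblet or secretory markers was 609 and 1884 CPM, with SCGB1A1 at 0 to 3 counts in all libraries. Over all libraries the lowest sums, 9.43 and 118 CPM, were those of transduced E292V. The part of depth and of these markers in the keratin differences was not tested.

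**Figure D4:**
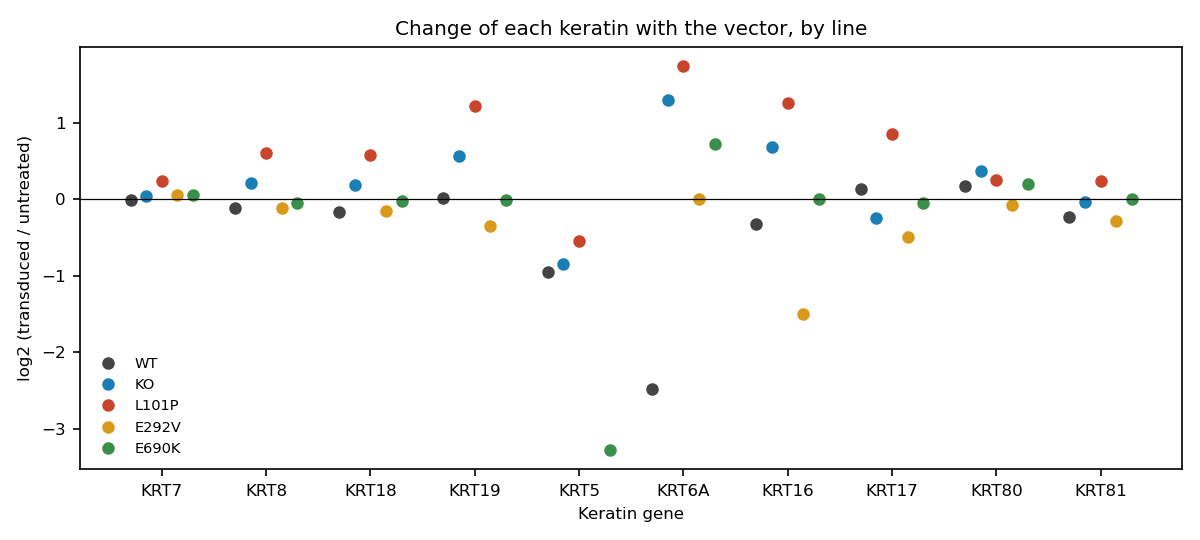
log2 change from untreated to transduced for each keratin, 1 point for each line. The L101P points are the highest of the 5 lines for 9 of the 10 keratins, with KRT80 (0.25 against 0.37 in KO) as the exception, KRT6A spreads from -2.48 in WT to 1.74 in L101P, and KRT5 of E292V is not drawn because its counts were 0.

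Genes of the structures to which keratins attach were examined in 6 lists, chosen with earlier results of these data known. Their counts and p-values in the line comparisons are therefore a description and no independent test. Genes named from a list were picked as those called with the largest differences, up to 3 in each line. In the vector comparison edgeR called 0 genes of each list, with 0 to 5 at an unadjusted p under 0.05. The 5 were in the hemidesmosome list, in which the DESeq2 Wald test called 1 gene, the single list where it called any. The hemidesmosome and laminin-332 list, the anchors of basal keratins to the basement membrane, had 8 genes. In L101P and in E690K 6 of them were higher and in KO 4, with none lower in these 3 lines. The median log2 differences were 0.80, 1.04 and 0.67, beside -0.014, -0.017 and -0.012 over all genes. Of all genes edgeR called 2.33% higher and 1.61% lower in L101P, 3.05% and 2.33% in E690K, and 0.807% and 0.99% in KO. In E292V the shares were 0.295% and 0.756%, and these shares stand beside the lists below too. The DESeq2 Wald test called 744 of 17978 genes in KO, 1236 in L101P and 432 in E292V. COL17A1, a collagen of the hemidesmosome, stood at 2.53 and 2.66 CPM in WT, 4.54 and 14.5 in L101P and 11.7 and 13.7 in E690K. It rose by 1.76 (SE 0.31, edgeR adjusted p = 0.00945) in L101P and by 2.28 (SE 0.31, edgeR adjusted p = 0.00116) in E690K. LAMB3, a laminin-332 chain, rose in KO (1.19, SE 0.17), L101P (1.39, SE 0.17) and E690K (1.68, SE 0.175), and its edgeR adjusted p was 0.00578, 0.00168 and 0.000273. ITGA6 in KO (0.71, SE 0.11, edgeR adjusted p = 0.00641) and ITGB4 in L101P (1.06, SE 0.14, edgeR adjusted p = 0.0022), the integrin chains of the hemidesmosome, were also higher. Both chains were above WT in KO, L101P and E690K alike. ITGA6 stood at 78.1 and 94.3 CPM in WT, 123 and 161 in KO, 126 and 153 in L101P, and 156 and 159 in E690K. ITGB4 stood at 321 and 399.5 CPM in WT, 479 and 640 in KO, 609 and 906.5 in L101P, and 790 and 859 in E690K. Without the L101P pair 7 of the 8 were called in KO.

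Of 13 desmosome and plakin genes tested, E690K had 4 higher, L101P and KO 3 each and E292V 0, with none lower and medians of 0.23, 0.16, 0.13 and -0.09. In E292V 3 had an unadjusted p under 0.05 and the DESeq2 Wald test called 0. PPL, the plakin periplakin, rose by 0.89 (SE 0.18, edgeR adjusted p = 0.0285) in KO, 0.93 (SE 0.18, edgeR adjusted p = 0.0143) in L101P and 1.09 (SE 0.18, edgeR adjusted p = 0.00411) in E690K. PLEC, plectin, which links filaments to hemidesmosomes, rose by 0.66 (SE 0.11, edgeR adjusted p = 0.00516) in E690K. PKP3, a desmosomal plaque protein, was higher in the same 3 lines by 0.45 to 0.51, and DSG2, a desmosomal cadherin, in KO and L101P by 0.38 and 0.45. DSG2 stood at 160.5 and 187.5 CPM in WT, 217 and 236 in KO, and 217 and 257 in L101P. The E690K pair, at 241 and 239 CPM, was above WT for DSG2 as well. Up to 3 called genes were named in each line, so the fitted difference of DSG2 in E690K is not given. With the KO labels exchanged 0 of the list were called in KO, and without the E690K pair 1. In L101P the first of these settings also ended the call of PPL and the other that of PKP3.

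Of 23 genes of squamous differentiation 8 passed the filter, and the single edgeR call was SFN, an epithelial 14-3-3 protein, which rose in E690K (0.67, SE 0.09, adjusted p = 0.00133). In the other 3 lines 0 to 2 of them had an unadjusted p under 0.05, and the DESeq2 Wald test called 1, in L101P. Of 10 basal epithelial transcription factors tested, edgeR called 1 higher in KO, 2 in L101P and 2 in E690K, where 1 was lower, and 0 in E292V, with 1 there at an unadjusted p under 0.05 and 1 called by the DESeq2 Wald test. KLF4, a factor of epithelial differentiation, rose by 0.48 in KO, by 0.66 in L101P and by 0.73 in E690K, each with an SE of 0.11, and its edgeR adjusted p was 0.0431, 0.00623 and 0.00185. TP63, a transcription factor of basal cells, rose in L101P by 1.69 (SE 0.36, edgeR adjusted p = 0.0227), from 2.07 and 3.18 CPM in WT to 4.89 and 12.5 CPM. KO (4.79 and 8.85 CPM) and E690K (5.99 and 4.39 CPM) were also above WT for TP63, without a call. In E690K TFAP2A was higher (0.37, SE 0.09, edgeR adjusted p = 0.0361) and GRHL3 lower (-1.05, SE 0.25, edgeR adjusted p = 0.0295). GRHL3 stood at 3.57 and 3.68 CPM in WT, 2.20 and 1.45 in KO and 1.91 and 2.06 in L101P. It stood at 2.76 and 2.47 CPM in E292V and 1.95 and 1.58 in E690K. It was thus below WT in every other line, though called in E690K only. With the KO labels exchanged the calls of TP63, GRHL3 and TFAP2A were lost, as was that of KLF4 in KO, which was also lost without the E690K pair, and that of TFAP2A was lost without the KO pair as well.

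Of 12 other intermediate filament genes tested, 3 were higher in L101P and 4 in E690K, and none was lower. In KO and E292V edgeR called 0 of them, with 4 and 1 at an unadjusted p under 0.05 and 3 and 1 called by the DESeq2 Wald test. LMNA, lamin A/C of the nuclear envelope, rose by 0.44 (SE 0.08, edgeR adjusted p = 0.00893) in L101P and 0.555 (SE 0.08, edgeR adjusted p = 0.0013) in E690K. VIM, the mesenchymal filament vimentin, was 0.39 higher (SE 0.09, edgeR adjusted p = 0.0319) in E690K, a call lost without the KO pair and with its labels exchanged. These 2 settings left 1 call in L101P and 2 in E690K. VIM stood at 372 and 441.5 CPM in WT and 517 and 544.5 CPM in E690K. Both E292V libraries, at 447.5 and 614.5 CPM, were also above both WT libraries, without an edgeR call. KO (362 and 399 CPM) and L101P (440.5 and 458 CPM) overlapped WT. Of 9 keratin-binding and chaperone genes edgeR called 0 in KO and E292V, with 4 and 0 at an unadjusted p under 0.05 and 3 and 0 called by the DESeq2 Wald test. HSPB1, a small heat shock protein, fell by 0.33 (SE 0.08, edgeR adjusted p = 0.0427) in L101P and FAM83H, which binds keratin filaments, rose by 0.51 (SE 0.11, edgeR adjusted p = 0.0234) in E690K. Both calls were lost with the KO labels exchanged, and that of HSPB1 also without the KO, the E292V or the E690K pair. HSPB1 was also below WT (664 and 613 CPM) in KO (538 and 485 CPM) and E690K (503.5 and 554 CPM), without a call. FAM83H was also above WT (105 and 118.5 CPM) in KO (133.5 and 159 CPM) and L101P (136 and 159 CPM), without a call.

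The genes most like each abundant keratin were ranked by Pearson r of log2 CPM over the 10 libraries, among 11952 genes other than keratins, as a description in which libraries of a line are not independent. KRT8 and KRT18 had the same 3 nearest genes: MYD88 (0.991 and 0.988), TGFBR2 (0.988 and 0.983) and ETHE1 (0.985 and 0.986). TGFBR2, a receptor for TGF-beta, stood at 247.5 CPM in transduced E292V and 496 CPM in transduced L101P, the libraries lowest and highest for KRT8. KRT19 was most like NET1 (0.995), CAST (0.989) and EPS8L3 (0.989). KRT7 was most like RETSAT (0.991), FXYD5 (0.986) and COL17A1 (0.981), and KRT80 most like ZNF185 (0.993), ITGA6 (0.991) and TNC (0.986). The values for KRT81 were lower, with ADI1 (0.967), PTGES (0.963) and UCHL1 (0.961).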

How the data were processed

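RNA of 10 A549 libraries was sequenced, 1 for each of 5 lines and 2 states. Raw counts per gene, as whole numbers, were deposited, and per the submitters' processing notes GRCh38, featureCounts, Subread, edgeR and limma were used. The annotation, the strand setting and the handling of multi-mapping reads are not given in the sources used here. Names were matched to GENCODE 29 (98.7% of rows), which also gave lengths, positions and sequences.

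Of counts from 1 to 10, 81.4% were even, so Wilson 95% intervals were computed on counts taken as read pairs. The analysis used edgeR 4.0.16 (R 4.3.3) with filterByExpr (17978 genes), TMM factors of 0.972 to 1.03, an additive quasi-likelihood fit of line and state (4 residual degrees of freedom, coefficient of variation 12.9%), Benjamini-Hochberg adjustment and a threshold of 0.05. The standard error is the size of a log2 change over the square root of F. With 1 library for each line and state, no spread between replicate libraries enters the p-values and standard errors. They rest on how far the lines differ in their change with the vector. That spread mixes responses particular to a line with differences between libraries, which may be technical. The untreated and transduced libraries of a line are paired because they come from the same cell line. The procedure was tested on simulated data.

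The members and lists were chosen with earlier results of these data known. All 10 keratins are named, other keratins from a mean of 1 CPM, up to 3 called genes of each list and line contrast, and the 3 genes most like each keratin above 10 CPM. The values of 1 gene of the hemidesmosome list, and the results of that list in E292V, are not reported here. Alternatives were another scaling (DESeq2 1.42.0 factors), other filters, the DESeq2 Wald test, leaving out each pair, and exchanging the labels of the KO pair.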

Additional observations from a re-analysis of the deposited data

Results flagged for a closer look

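The log2 change of KRT7 from untreated to transduced was 0.244 in L101P, against -0.015 to 0.055 in the other 4 lines. The gap between L101P and the nearest other line took 0.729 of the whole range, above the 95% limit of 0.71 for 5 values. This was the single such value among 9 sets of 5 lines examined. Chance gives about 1 in 20 for each set, and so more over the 9. The sets come from the same libraries and are not independent. KRT7 had 170685 counts in untreated and 318576 in transduced L101P.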

How the results depend on the processing

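The count of keratins past the threshold in a line, which is no test of them, depended on the genes and pairs entering the fit. Without a filter on low counts 5 were called in KO, 9 in L101P and 4 in E292V, and the DESeq2 Wald test called 1 in E292V. With the labels of the KO pair exchanged 0 were called in KO and 3 in L101P, where 142 and 367 of 17978 genes were called. Leaving out each pair gave 1 to 5 in KO, 3 to 5 in L101P, 0 to 3 in E292V and 5 to 9 in E690K. Over all genes it gave 147 to 1124 in KO, 367 to 732 in L101P, 57 to 689 in E292V and 639 to 1993 in E690K. The comparison could not be fitted without the pair of the line itself. The other 33 of 43 keratin counts stayed within 1.5 times. For the vector 0 of the 10 keratins were called under each of the 11 alternatives, including the fit with no replicate block. Signs of uncalled vector changes reversed without the L101P pair for KRT8 (-0.015, up to 0.159 without another pair), KRT18 (-0.037, up to 0.142), KRT16 (-0.117, up to 0.438) and KRT17 (-0.168, up to 0.188), and with the KO labels exchanged for KRT6A (-0.141) and KRT16 (-0.116). The cause of these shifts was not tested. Genes called for the vector numbered 0, and 237 without a filter, 133 when the L101P pair was left out, 3 when that of E690K was, and 113 under DESeq2. Where they moved by over 1.5 times, genes called in a line went from 323 to between 142 and 1124 in KO, from 709 to between 367 and 1437 in L101P, from 189 to between 57 and 689 in E292V, and from 967 to between 599 and 1993 in E690K. All 309 log2 differences of keratins between lines moved by less than their standard error. CPM from library totals moved none of the 10 mean levels by more than their spread. Depth limits KRT5, with 0 to 38 counts, and KRT6A in WT and E292V, with 13 to 75.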

Other observations

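The 4 keratins under 10 CPM on average fell outside the rule on likeness, and their nearest genes were looked up after their values were seen. KRT16 was most like DUSP4, a phosphatase of the MAP kinase pathway (Pearson r of 0.992 over the 10 libraries, among 11952 genes), with AC010503.4 (0.989) and LGR6, an R-spondin receptor of epithelial stem cells (0.985). LGR6 stood at 4.44 and 4.76 CPM in untreated and transduced WT, 10.8 and 16.4 in KO, 15.5 and 33.3 in L101P, 3.12 and 2.02 in E292V, and 19.9 and 18.3 in E690K. DUSP4 stood at 329 and 308 CPM in WT, 381 and 421 in KO, 413 and 511 in L101P, 269 and 198 in E292V, and 450 and 458 in E690K. In both genes, as in KRT16, the E292V pair was the lowest and transduced L101P the highest. Both were picked for their likeness to KRT16 in these libraries, so the shared order is no separate result. KRT17 was less close to any gene, with DLGAP1-AS2 first (0.934). KRT6A was most like UBE2D2 (0.973), whose levels spanned only 140 to 152 CPM, and KRT5 most like RABIF (0.919).

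KRT4, a keratin of mucosal stratified epithelium that is not among the 10, stood at 19.7 CPM in untreated and 11.4 CPM in transduced WT. It was highest in transduced L101P, at 34.1 CPM, but at 14.7 CPM in untreated L101P, and both E690K libraries (7.73 and 5.35 CPM) were below the other 8.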
